A study of Drosophila melanogaster with 2 samples.

Results

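Tubulins are the building blocks of microtubules, and 8 alpha and beta tubulin genes of Drosophila melanogaster were examined for peaks of Myb-GFP, out of 13945 protein-coding genes. The 8 are alphaTub84B, alphaTub84D, alphaTub67C, alphaTub85E, betaTub56D, betaTub60D, betaTub85D and betaTub97EF, taken by gene symbol. For each gene, peak summits were collected within 500 bp of any of its transcription start sites (TSSs) and within 10 kb of the gene. Earlier results of these peak lists, among them the promoter calls and the strong peak near betaTub60D, were known when the genes and windows were chosen, so the values are given as descriptions with no test.

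The series holds 1 group of 2 biological replicates. Both are chromatin of whole embryos of mixed sex, aged 0 to 24 h, from a transgenic Myb-GFP line that stably makes Myb with GFP at its C terminus, and both were immunoprecipitated with an antibody against GFP after sonication to 200 to 800 bp. All samples carry the tagged protein, and no control library was analysed here, so no background precipitation stands beside the values. The embryos span all of embryonic development in bulk, and a site bound strongly in few cells cannot be told apart from one bound weakly in many. No test across samples was possible, because the series has no second group.

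A microtubule is a polymer of dimers of alpha and beta tubulin, and it forms the mitotic spindle, the axoneme of cilia and sperm tails, and the tracks of neurons. Flies carry several genes of each kind, and these differ in where they are expressed. Myb binds DNA as part of the Myb-MuvB complex, which in flies is best known for driving genes needed in mitosis. Tubulins supply the spindle itself, while most of the well-studied targets regulate or move it.

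The 4 peak lists used are on build dm6. The relaxed list of each replicate and that of the pooled alignments held 30000 peaks each, and the called set, which the submitters selected by the irreproducible discovery rate (IDR), held the 6100 strongest pooled peaks. Peak signal is the submitters' own value for a peak, on a scale that is not stated, with a lowest value of 93.9, a highest of 7447 and a median of 183.0 among called peaks. Signals are compared within a list only, so each value is given with its rank in its list, where rank 1 is the strongest. Read depth behind a peak is unknown. Of the called intervals, 61.1% were exactly 476 bp wide, and their summit was the middle of the interval, which limits how finely those summits place a peak.

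The start sites of the ubiquitous and the maternal alpha tubulin genes are shown first, because the results turn on which of them carried a peak. Each sequence is the 150 bases before the TSS on the gene's strand, read from the NCBI sequence of the dm6 assembly. They are given for alphaTub84B (called peak at the TSS), alphaTub84D (weak peak) and alphaTub67C (no summit within 500 bp in any list), at chr3R:7086449-7086598 (plus strand), chr3R:7530603-7530752 (plus strand) and chr3L:9681118-9681267 (plus strand). Capitals mark matches to any of 8 words on either strand, namely the Myb site (CAACGG or TAACGG), the cell cycle homology region CHR (TTCGAA or TTTGAA), the E2F site (TTTCCCGC, TTTCGCGC, TTTGCCGC or TTTGGCGC), the DRE (TATCGATA), the BEAF-32 word (CGATA, contained in the DRE), the M1BP word (GGTCACAC), the GAGA word (GAGAG) and the TATA word (TATAAA).
alphaTub84B: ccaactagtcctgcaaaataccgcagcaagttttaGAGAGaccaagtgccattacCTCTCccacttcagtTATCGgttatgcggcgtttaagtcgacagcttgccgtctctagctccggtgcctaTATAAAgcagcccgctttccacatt
alphaTub84D: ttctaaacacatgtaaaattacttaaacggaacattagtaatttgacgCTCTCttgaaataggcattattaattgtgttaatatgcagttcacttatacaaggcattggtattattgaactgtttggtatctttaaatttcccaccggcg
alphaTub67C: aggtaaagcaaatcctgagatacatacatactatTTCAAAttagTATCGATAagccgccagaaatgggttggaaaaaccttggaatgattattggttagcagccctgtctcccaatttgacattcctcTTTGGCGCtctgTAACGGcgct

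In the called set, 2 of the 8 genes had a summit within 500 bp of a TSS, alphaTub84B and betaTub56D. Of all 13945 protein-coding genes, 35.6% met the same rule, so the share of tubulin genes, 25%, was not above the background. Each is a widely expressed member of its family. The maternal alphaTub67C, the testis gene betaTub85D, the sense-organ gene alphaTub85E, the second widespread alpha gene alphaTub84D, the mesodermal betaTub60D and betaTub97EF had none. Number of TSSs and divergent neighbours go with such calls in the whole annotation. Among protein-coding genes with 1 TSS position, as 7 of the 8 have, 30.3% were called. Genes with a TSS within 1000 bp that points away on the other strand were called in 57.8% of cases and the others in 21.1%. The 3 tubulin genes with such a divergent neighbour were alphaTub84B (Tailor, 516 bp away), alphaTub84D (Rtnl2, 512 bp) and betaTub56D (CG7744, 904 bp), so both called genes belong to the class that is called more often.

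The peak at alphaTub84B, which encodes the main alpha tubulin of most fly cells, was the strongest promoter peak of the family. Its gene (FBgn0003884) lies on 3R from 7086599 to 7088839 on the plus strand with 1 annotated TSS, and the called summit at 7086596 was 3 bp upstream of it. The peak had a signal of 165.8 in the called set (rank 3410 of 6100), 77 in replicate 1 (rank 3698 of 30000) and 106.9 in replicate 2 (rank 2600). The replicate summits lay 43 bp upstream and 23 bp downstream of the TSS. The peak was present in both replicates, although it is in the weaker part of the called set: 33.5% of the 4966 called protein-coding genes had a lower strongest promoter signal. The genes ranked next to it were Spase12 (165.9) and CG34150 (165.72), with likeness measured as the rank of called signal over all called genes.

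betaTub56D, which encodes the beta tubulin laid down in the egg and made in most dividing cells, was called just above the end of the set. The gene (FBgn0284243) lies on 2R from 19447319 to 19451600 on the minus strand and has 2 TSSs, at 19451600 and 19449599. Its called summit at 19451583 was 17 bp downstream of the first TSS, in the 5' UTR, with a signal of 94.2 and rank 6080 of 6100, where the lowest called signal was 93.9. In replicate 1 the summit had 53.7 (rank 5266) and in replicate 2 it had 44.0 (rank 7181). The replicates thus fell on either side of rank 6100, and only 0.222% of the called protein-coding genes had a lower signal. Next in rank were mei-218 (94.46) and IntS4 (94.2). The inner TSS had no called summit, and its strongest pooled summit, 33 bp upstream, had 53.7 (rank 10776). At that inner TSS, replicate 2 had a summit of 37.7 (rank 8523, 18 bp upstream), while that of replicate 1, 228 bp upstream, had 18.0 (rank 17995).

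alphaTub84D encodes an alpha tubulin nearly identical to that of alphaTub84B and is also widely expressed, yet its promoter was not in the called set. The gene (FBgn0003885) lies on 3R from 7530753 to 7532732. Its strongest pooled summit within 500 bp, 158 bp upstream, had 58.0 (rank 9861). In replicate 1 the strongest summit, 12 bp upstream of the TSS, had 28.6 (rank 9777), and in replicate 2 a summit 271 bp upstream had 39.5 (rank 8110). That replicate 2 summit is nearer to the TSS of Rtnl2, 241 bp away. The strongest summits of the replicates thus lay at different positions in the 512 bp between the 2 genes. A weaker replicate 2 summit, 71 bp upstream of the alphaTub84D TSS and closer to that of replicate 1, had 14.7 (rank 29831). alphaTub84D was also the 1 gene of the 8 with no called summit within 10 kb. The coding sequences of alphaTub84B and alphaTub84D were 92.2% identical, whereas their 250 bp upstream of the TSS were 45.6% identical, inside the range of 41.0% to 51.2% over all 28 pairs of tubulin genes.

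The strongest promoter summits came in the same order in both replicates for the 4 genes with a summit within 500 bp in the pooled and both replicate lists. By rank, alphaTub84B came first (2600 to 3698), then betaTub56D (5266 to 7181), alphaTub84D (8110 to 9777) and betaTub60D (12595 to 14891). How often other genes keep their order between the replicates was not counted. These are ranges over 2 replicates and were not tested. For alphaTub84D and betaTub60D the strongest summits of the replicates lay over 100 bp apart, so the ranges may join different peaks. The pooled ranks of these genes, 9861 and 24565, lay outside their ranges. In the complete pooled list 4 of the 8 genes had a summit within 500 bp, against 59.1% of protein-coding genes. In the complete list of replicate 1 there were 6 of 8 against 59.1%, and in that of replicate 2 there were 4 of 8 against 58.2%. With the 6100 strongest peaks of a replicate, the counts were 2 of 8 in replicate 1 (background 36.5%) and 1 of 8 in replicate 2 (33.9%), since betaTub56D dropped out there.

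**Figure D1:**
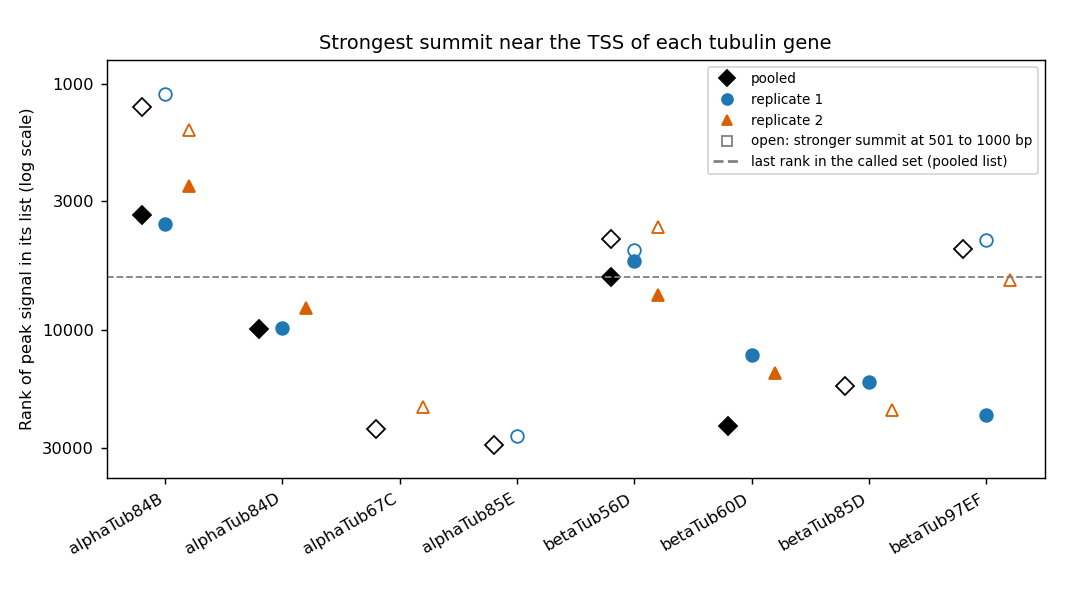
Rank of the strongest summit within 500 bp of a TSS (filled) and of a stronger one at 501 to 1000 bp (open) in the pooled list and each replicate list, on a log axis with strong peaks at the top. alphaTub84B lies above the last called rank of 6100 in all 3 lists, betaTub56D lies close to it, and the filled symbols of the other genes lie below it or are missing.

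The tissue-restricted genes had a weak summit or none in the lists within 500 bp of their TSS. A missing summit means only that none was listed there, since coverage was not measured. None of these genes has a divergent neighbour, and all 3 widely expressed genes have 1, so expression and divergence cannot be told apart here. The chromatin was of embryos, and adult ovary and testis were not sampled. alphaTub67C, the maternal alpha tubulin used in female meiosis and the first embryonic divisions, lies on 3L from 9681268 to 9683370 and had no summit within 500 bp of its TSS in the called, pooled or replicate lists. The nearest pooled summit was 754 bp downstream, in the coding sequence, with 27.9 (rank 25156). alphaTub85E, expressed in a narrow set of cells that includes the support cells of chordotonal sense organs, lies on 3R from 9731221 to 9733250 and likewise had none within 500 bp. Its nearest pooled summit was 576 bp upstream with 24.8 (rank 29377), close to the lowest signal of that list, 24.3. betaTub60D, the beta tubulin of developing muscle, had 28.4 in the pooled list (rank 24565, 194 bp upstream), 23.2 in replicate 1 (rank 12595, 223 bp downstream) and 24.5 in replicate 2 (rank 14891, 208 bp upstream).

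betaTub85D, the beta tubulin of the male germline, which builds the meiotic spindle and the sperm tail, stood at the edge of the 500 bp window. The gene lies on 3R from 9408383 to 9410282 on the minus strand. Its weak summit was 501 bp downstream of the TSS in the pooled list (37.6, rank 16905), 488 bp in replicate 1 (19.3, rank 16282) and 554 bp in replicate 2 (19.1, rank 21194). It therefore counted as a promoter summit in replicate 1 alone, and the pooled summit missed the window by 1 bp. Only 46 bases separate its TSS from the 3' end of Task7 on the same strand, and they are shown because they are all of its promoter that no exon overlaps; they held none of the 8 words.
betaTub85D, chr3R:9410283-9410328 (minus strand): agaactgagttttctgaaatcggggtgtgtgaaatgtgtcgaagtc

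betaTub97EF, a beta tubulin of the gut and other differentiated tissues, had a called peak upstream of its start but outside the promoter window. The gene (FBgn0003890) lies on 3R from 27967008 to 27988384 on the minus strand with 1 TSS. The called summit at 27988998 was 614 bp upstream of that TSS, in intergenic sequence, with a signal of 123.0 (rank 4704 of 6100), and no other TSS was nearer. In replicate 1 the summit had 66.2 (rank 4308, 638 bp upstream) and in replicate 2 it had 49.6 (rank 6256, 514 bp upstream). These ranks overlap those of betaTub56D, so the peak was as strong as one that was counted at a promoter. With the distance taken from the interval's edge in place of its summit, a setting added after seeing the data, betaTub97EF was the third gene called. A further weak summit lay in its long first intron, 1351 bp from the TSS in the pooled list with 69.9 (rank 8127), with 21.6 in replicate 1 (rank 13939) and 46.8 in replicate 2 (rank 6698). The 101 bases around the called summit, shown for comparison with the promoters above, held 1 CHR word and 1 GAGA word.
betaTub97EF summit, chr3R:27988948-27989048 (minus strand): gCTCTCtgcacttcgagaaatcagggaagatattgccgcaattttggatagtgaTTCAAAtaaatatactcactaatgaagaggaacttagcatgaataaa

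Within 10 kb, 7 of the 8 genes had a called summit, against 73.7% of protein-coding genes. The 18 summits comprised 2 at a tubulin gene's own promoter, 11 within 500 bp of another gene's TSS and 5 over 500 bp from every TSS. The share over 500 bp from every TSS, 27.8%, was near the 28.5% of all called summits. All 18 had a summit within 100 bp in both replicate lists, as did 95.1% of all called summits, which IDR had selected for reproducibility between these replicates.

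**Figure D2:**
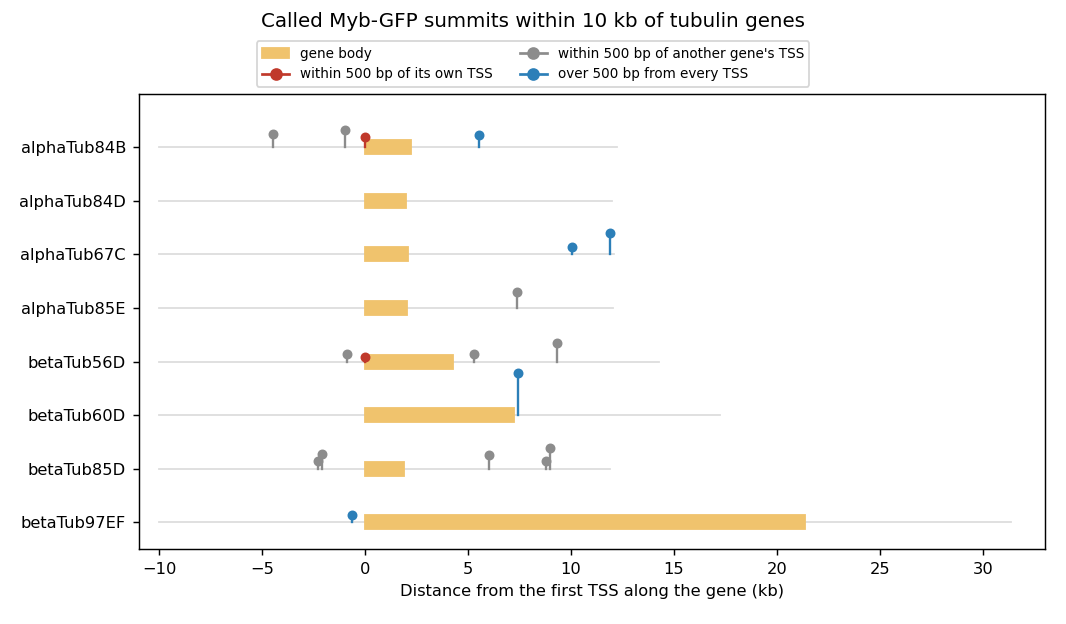
Called summits within 10 kb of each gene by distance from its first TSS in kb, with the direction of transcription to the right; the height of a stem grows with the logarithm of peak signal. Summits at the gene's own TSS (red) are seen at alphaTub84B and betaTub56D, those at a neighbour's TSS (grey) surround betaTub56D and betaTub85D, and the tallest stem is that past the 3' end of betaTub60D.

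Around alphaTub84B, 2 neighbouring promoters and 1 site beyond the gene had higher called signal than its own start. A summit 960 bp upstream, at the antisense RNA gene asRNA:CR45907 and in an intron of Tailor, a gene for an enzyme that adds uridines to RNA, had 372.7 (rank 1243), with 207.7 in replicate 1 and 159.5 in replicate 2. The promoter of Dpck had 234.6 in the called set, 128.4 in replicate 1 and 100.6 in replicate 2, where it was below the 106.9 of alphaTub84B. The third lay 3310 bp past the gene's 3' end and 1558 bp from the nearest TSS, that of lncRNA:CR43685, with 225.1 (rank 2391), 122.8 in replicate 1 and 110.6 in replicate 2. Around betaTub56D, the promoters of RpL11, a gene for a large-subunit ribosomal protein (446.6), CG7744 (135.1) and EloC, which encodes elongin C (131.9), were each above its own 94.2. CG7744 starts 904 bp away on the other strand, and its peak, 873 bp upstream of the betaTub56D TSS, had 60.4 in replicate 1 and 77.6 in replicate 2, above the betaTub56D peak in both.

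betaTub85D lay between called peaks that belong to other genes. On its upstream side were 277.3 at Task7, a gene for a potassium channel, and 128.0 at alpha-Man-IIa, whose product trims N-linked sugars, both 2 kb or more away and each within 500 bp of both of these TSSs. On the other side were 568.4 at RpL34b, a gene for a large-subunit ribosomal protein, 137.0 at CG8132 and 270.5 at CG9356, where CG8135 and BBIP1 start within 500 bp on the other strand. The 5 summits ranked between 707 and 4499. The nearest called peak to alphaTub85E was at hyd, which encodes a ubiquitin ligase, with a signal of 333.1 (rank 1455) and a summit 5330 bp past the 3' end of alphaTub85E. For alphaTub67C, both called summits lay in introns of Prps, the phosphoribosyl pyrophosphate synthetase gene downstream. One had 124.5, and the other had 591.1 (rank 680), with 301.6 in replicate 1 and 289.7 in replicate 2, 677 bp from the TSS of asRNA:CR45804 and 9774 bp past the 3' end of alphaTub67C.

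The peak near betaTub60D was among the strongest of the called set. Its summit at 24313302 on 2R lay 203 bp past the annotated 3' end of the gene (FBgn0288686, 2R from 24305881 to 24313099, plus strand), 7421 bp downstream of the gene's TSS and 11725 bp from the nearest TSS of any other gene. It had a signal of 6407 and was rank 3 in the called set. Replicate 1 had 3379 (rank 3) and replicate 2 had 3051 (rank 4), with summits 4 and 2 bp from the called one. The replicates placed it within 6 bp of each other at nearly the same rank, while the promoter of the same gene held weak summits in the relaxed lists only. The median signal was 148.0 over the 1741 called summits that lay over 500 bp from every TSS. Of those the betaTub60D summit was second, after a summit 543 bp from a TSS of dachs with 6574, and it was first of the 1325 summits over 1000 bp from every TSS, where the next had 3539. The interval was 662 bp wide, and 0.934% of called intervals were at least as wide. Such distal summits were called within 10 kb of 4 of the 8 tubulin genes, against 24.6% of protein-coding genes. The 4 include betaTub60D, whose peak was known when the genes were chosen, so no excess can be read from the count. They also include betaTub97EF, with a summit 614 bp from its own TSS.

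**Figure D3:**
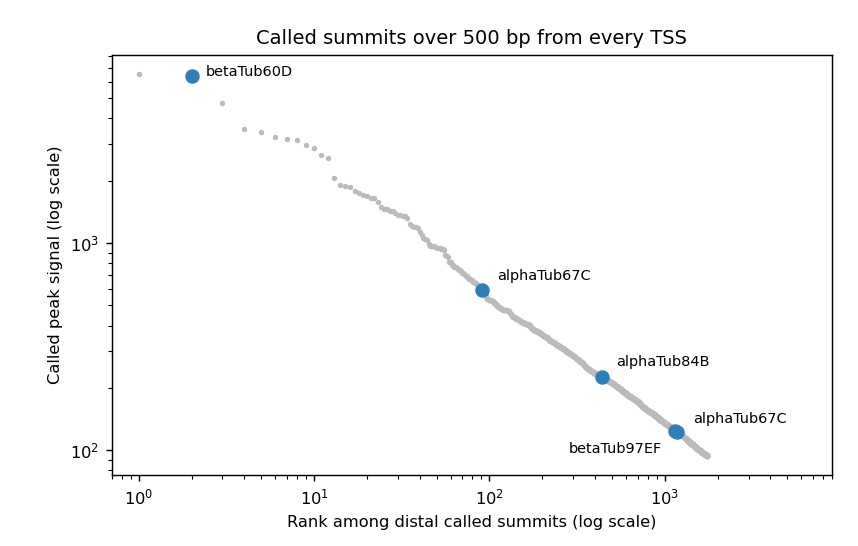
Signal of the 1741 called summits over 500 bp from every TSS against their rank, both on log axes, with the 5 summits within 10 kb of a tubulin gene in blue. The betaTub60D summit is second with 6407, and the other 4 have signals between 123.0 and 591.1.

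No searched word was found at the first TSS of both called genes and at none of the other tubulin TSSs. Within 250 bp of the TSS, a Myb site was found at 1 of the 9 tubulin TSSs, that of alphaTub67C, against 26.6% of 19253 protein-coding TSSs. The same window at alphaTub67C held 3 CHR words, 1 E2F site and 1 DRE, and an E2F site or a DRE was found at no other tubulin TSS, against 10.5% and 8.48% of all. This gene, whose bases are shown above and which had no summit at its start, thus had the most Myb, CHR, E2F and DRE words together. It is 1 gene, and whether words go with summits was not tested. CHR words were found at 5 of the 9 TSSs against 60%, GAGA words at 6 of 9 against 46.8% and TATA words at 6 of 9 against 52.1%. BEAF-32 words were found at 5 of 9 against 58.9%, and the M1BP word at 1, that of alphaTub84D, against 7.41%. No match says only that these letters are not in the window.

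Within 50 bp of the 18 called summits near tubulin genes, 0 held a Myb site and 4 held a CHR word, against 9.59% and 23.0% of all called summits. BEAF-32 words were at 7 of 18 against 28.6%, TATA words at 5 against 12.4%, GAGA words at 4 against 9.80% and the M1BP word at 1 against 5.25%. E2F sites and DREs were at 0, against 2.25% and 6.08%. The alphaTub84B summit had 1 CHR and 1 TATA word, and that of betaTub56D had 1 GAGA and 1 TATA word. The summit past betaTub60D had 1 CHR word within 50 bp. Its whole interval of 662 bp, a wider window, held 1 Myb site, 4 CHR words, 2 GAGA words and 1 TATA word. The intervals of the 4 other distal peaks near tubulin genes held no Myb site. No share over all called intervals was counted for whole intervals. The betaTub60D interval had a GC content of 29.6%, beside a median of 39.1% over called intervals. In the 4 other distal peaks it was 31.5% to 40.1%.

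Similar paralogs can share reads, so the regions were checked for repeated sequence. Of the stretches of 31 bases within 500 bp of each of the 9 TSSs, and in the 7 called peaks at their promoters or over 500 bp from every TSS, 0% occurred elsewhere in the assembly. In the gene bodies the share ran from 0% in alphaTub67C to 8.82% in alphaTub84B and 11.4% in alphaTub84D.

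In the called set, genes that fold, modify and bind tubulin had promoter summits more often than the tubulin genes themselves, in counts that were not tested. For modifying enzymes this depended on the threshold. In the complete pooled list 8 of 15 had a summit, beside 4 of 8 tubulin genes and 59.1% of protein-coding genes. The lists of related genes were written with earlier results of these data known. Of the microtubule-associated and severing proteins, 18 of 22 (81.8%) had a called promoter summit, against 35.6% of protein-coding genes, with a median signal of 335.2 against 224.2 over all called genes. They were led by chb, the CLASP that stabilises microtubule ends (2668, with 1427 and 1231 in replicates 1 and 2), Eb1, a plus-end tracker (1398), and feo, a bundler of the spindle midzone (1125). The 4 without a call were tau and futsch, which encode microtubule proteins of axons, Map60 and the katanin subunit gene kat80.

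Of the tubulin folding cofactors and chaperones, 11 of 18 (61.1%) were called, with a median of 268.3. CCT1 (756.3) and CCT7 (487.0), subunits of the chaperonin that folds tubulin, and Tbcd (356.4), a cofactor that assembles the dimer, had the highest signals. Tubulin-modifying enzymes were called in 7 of 15 cases (46.7%), led by Atat, the alpha tubulin acetyltransferase (1185), and the tubulin ligase-like genes TTLL4A (472.6) and TTLL15 (362.1). Among 4 other tubulins, gammaTub37C (1523), the gamma tubulin of the female germline and early embryo, and gammaTub23C (205.4), that of other dividing cells, were called. The remaining 2, CG7794 and the beta tubulin gene betaTub65B, had no summit within 500 bp in the called list or in either replicate list. Divergent neighbours, which go with more calls, were found at 13 of 18 folding genes, 9 of 15 modifying enzymes and 9 of 22 microtubule-associated genes. They were found at 3 of 8 alpha and beta tubulins and at 5526 of all 13945 protein-coding genes. The number of TSS positions, which also goes with calls, was 1 at 7 of the 8 alpha and beta tubulins. It ran from 1 to 2 at folding genes and from 1 to 6 at modifying enzymes and at microtubule-associated genes. The part of either in these counts was not tested.

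**Figure D4:**
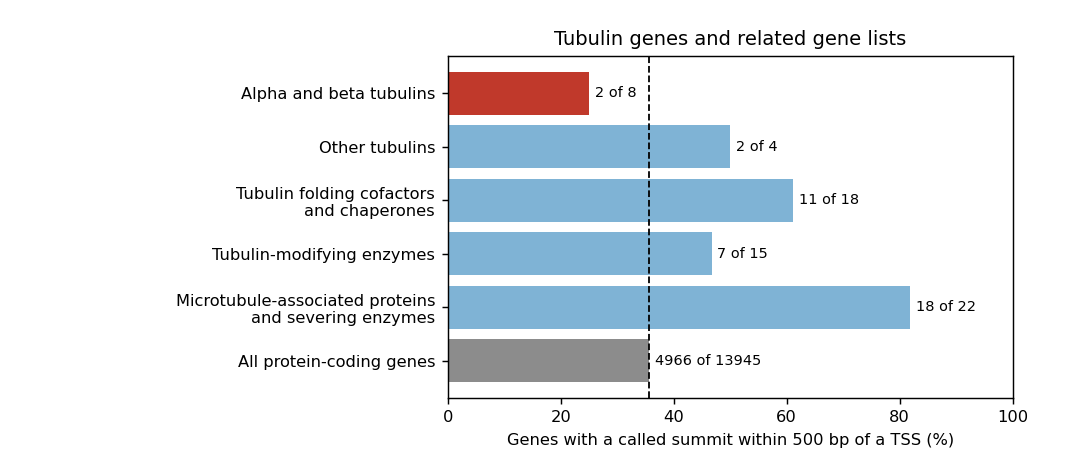
Percent of genes with a called summit within 500 bp of a TSS for the alpha and beta tubulins (red), 4 related lists (blue) and all protein-coding genes (grey, dashed line). The tubulins lie below the line at 2 of 8, and the related lists run from 7 of 15 to 18 of 22.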

How the data were processed

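Chromatin immunoprecipitation and sequencing of Myb-GFP gave 4 dm6 peak lists without headers. According to the labels, relaxed peaks were called against a control in each replicate and in the pooled alignments, and IDR then gave the called set. Signal values were deposited by the authors on a scale that is not stated. Which aligner and caller made them, and in which version, is not given in the sources used here. Lists on dm3 were not used, because no annotation of that build was at hand.

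Summits (interval start plus offset, 1-based) on 6 arms were assigned with Python 3.11.15 and pandas 2.3.3 to TSSs of all Ensembl release 115 transcripts except transposable elements (23581 positions). Sequence came from NCBI's copy of the same assembly, and paralogs were aligned globally with Biopython 1.88. As a check of the code alone, summits were planted within 500 bp of a TSS, and the assignment with that window found 200 of 200 planted genes. It does not bear on whether real summits belong to the genes named.

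Members, lists, words and windows were chosen with earlier results of these data known. Text names the 8 members, genes starting within 500 bp of the called summits within 10 kb, the nearest gene to each distal summit, neighbours in rank, and the 3 strongest genes of each list. Outside this rule, dachs, Hml, lwr, CG5895, Rtnl2, tau, futsch, Map60, kat80, CG7794, betaTub65B and Prps were named after their values were seen. Of 61 list names, 59 matched a gene by symbol or synonym. Replicates are 2 samples of 1 line, labelled biological. Alternatives changed the window, TSSs, threshold, list and matching distance.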

Additional observations from a re-analysis of the deposited data

How the results depend on the processing

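The called tubulin genes rest on a threshold that 1 of them barely passed. Among the stronger 3050 called peaks, 0 of 8 genes had a promoter summit (21.6% of protein-coding genes), and the complete pooled list gave 4 (59.1%). Leaving out a replicate gave 1 to 2 genes and 33.9% to 36.5% of protein-coding genes; betaTub56D was lost without replicate 1. A match among the strongest peaks of both replicates was found for 1 gene, alphaTub84B, in place of 2. The background was 30.9% with a 250 bp window, 38.9% with 1000 bp and 33.7% with 1 TSS per gene. It was 37.3% with distance from the interval's edge, an alternative chosen after seeing the data. With 1000 bp the strongest signal was 372.7 at alphaTub84B and 135.1 at betaTub56D, both from a neighbour's peak, and 123.0 at betaTub97EF. Of the related lists, other tubulins had 1 called gene with 250 bp. In the complete pooled list, folding genes had 17 and modifying enzymes had 8. Across all settings, 50 values stayed within 1.5 times a main count, within its 95% Wilson interval for percentages, or equal for signals, and 16 moved. No paired analysis was possible because the series has 1 group. Read depth is unknown, so no counting error could be given for a signal.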

Other observations

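The position of the betaTub60D peak just past a 3' end was looked for in other strong distal peaks, which was decided with the values in view and not tested. The 5 strongest called summits over 500 bp from every TSS were those near dachs (6574), betaTub60D (6407), Hml (4756), lwr (3539) and CG5895 (3439). All 5 lay within 500 bp past the annotated 3' end of some gene, against 171 of the 1741 distal summits (9.82%). Counting only intergenic summits, 3 of the 5 lay in such a place, betaTub60D among them, against 138 of the 1741 (7.93%), with a median signal of 218.3. The betaTub60D summit set the search and is itself 1 of the 5. The summits near dachs and lwr lay in an intron of dachs and the 3' UTR of lwr, so the 3' end there is another gene's. Those near dachs and Hml were 543 and 568 bp from the nearest TSS.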
